A study of Mus musculus with 8 samples.

Results

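The 9 genes described here are abundant or well-known long noncoding RNAs of the brain, *Malat1*, *Neat1*, *Meg3*, *Rian*, *Mirg*, *Miat*, *Snhg11*, *Pantr1* and *Peg13*. They were taken by symbol from a table of 53379 genes, and each symbol matched 1 Ensembl identifier. All 9 passed the filter on low counts, which kept 16914 genes. The cingulate cortex was sequenced from 4 male *Mvp*+/+ mice (WT) and 4 male *Mvp*-/- mice (Mvp KO), with no treatment in either group. Both groups came from a line on the C57BL/6N background. The Mvp KO allele is a gene trap in the first intron of *Mvp*, with a β-geo reporter cassette and a polyadenylation site, and comes from 1 embryonic stem cell clone. The age of these mice is not given in the sources used here. Libraries were made from polyadenylated RNA with a stranded kit and read as short single ends.

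Long noncoding RNAs are transcripts with no long protein-coding frame. *Malat1* and *Neat1* are neighbouring nuclear RNAs: *Malat1* gathers in nuclear speckles, which store splicing factors, and *Neat1* is the scaffold of paraspeckles. *Meg3*, *Rian* and *Mirg* are expressed from the maternal copy of the imprinted *Dlk1*-*Dio3* domain, and *Rian* and *Mirg* carry small nucleolar RNAs (snoRNAs) and microRNAs (miRNAs) inside them. *Peg13* is expressed from the paternal copy of another imprinted domain, within an intron of *Trappc9*. *Miat*, also called Gomafu, is a nuclear RNA of neurons, *Snhg11* hosts snoRNAs, and *Pantr1* lies beside *Pou3f3*, which encodes a transcription factor of the developing cortex.

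The libraries held between 28456504 and 42854368 counts, and the 9 genes together took 1.05% of all counts. *Mvp*, the targeted gene, ranged from 5.49 to 7.89 CPM (each library's counts brought to 1 size by TMM factors) over the WT samples and from 1.44 to 2.13 CPM over the Mvp KO samples, so no label went against it. WT replicate 4 stood apart along a leading principal component that held 46.0% of the variance of log2 CPM. Genes of the neuronal activity response were summed, namely immediate early genes together with *Bdnf* and *Inhba*. The sum was 4003 CPM in this library against 717 to 1632 CPM in the others. Of the 13 genes, 12 were highest in this library. Summed neuron markers ranged from 10770 to 13090 CPM in WT and from 10327 to 12168 CPM in Mvp KO. The highest sum was that of WT replicate 4, where 6 of the 8 markers were highest and 2 lowest. Summed markers of choroid plexus and red blood cells stayed between 17.2 and 47.0 CPM.

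No member was called between the genotypes: 0 of 9 passed an adjusted p of 0.05 in edgeR's quasi-likelihood test, where 0.00591% of the genes tested did, and that gene was *Mvp*. At an unadjusted p under 0.05 the count was also 0 of 9, against 1.56% of all genes, and DESeq2's Wald test and limma voom likewise called 0. No member had genotypes that did not overlap, against 1.52% of all genes, although *Meg3* did when libraries were scaled without the members and the mitochondrial genes. The log2 fold change was above 0 for 6 members and below 0 for 3, with a median of 0.08, and 50% of all genes tested were above 0. For 8 of the 9 the 95% interval of the difference lay within 1.5-fold in either direction, against 64.5% of all genes. *Neat1* was the exception, with an interval from 0.816-fold to 2.04-fold. In bulk tissue, fewer cells of a type and less RNA per cell cannot be told apart.

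**Figure D1:**
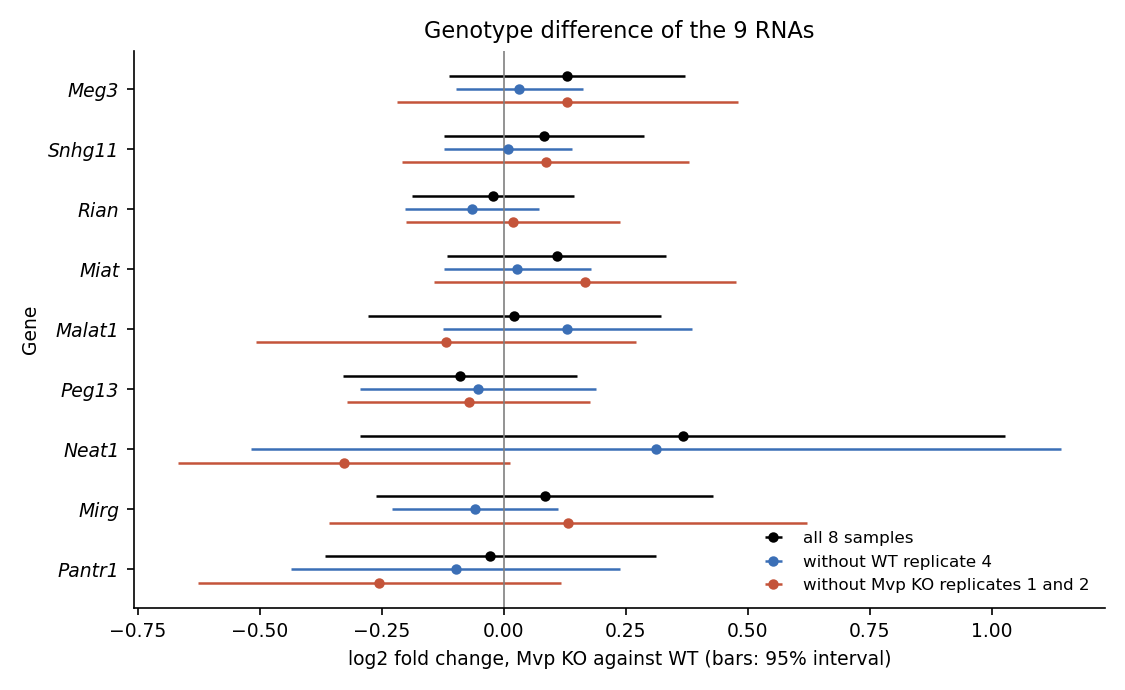
Log2 fold changes of the 9 RNAs in Mvp KO against WT (x axis, log2 units; points, estimates; bars, 95% intervals) from edgeR, in all 8 samples, without WT replicate 4 and without Mvp KO replicates 1 and 2. *Neat1* moved from 0.37 to -0.33 when both Mvp KO samples were left out, and the bars of all 9 genes crossed 0 in all 3 settings.

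*Meg3* was the most abundant member and the 4th most abundant gene of the table by CPM, in libraries selected for poly(A) RNA. It lies on chromosome 12 from 109541001 to 109571726, plus strand (GRCm38, GENCODE vM21). Its level was 4903, 4739, 4849 and 3529 CPM in the WT samples, in order of their replicate numbers, which is the order used below, and 4925, 4927, 4891 and 4964 CPM in the Mvp KO samples. Apart from WT replicate 4, the samples kept within 1.05-fold of each other, and WT replicate 1 was above 1 of the Mvp KO samples. The log2 fold change was 0.13 (standard error 0.11, adjusted p = 0.969), and 0.03 without WT replicate 4. An exact permutation test of the means gave p = 0.0571 (two-sided, n = 4 per genotype), where 0.0286 is the smallest p that 4 against 4 samples allow. Over the 7 samples other than WT replicate 4, the coefficient of variation (SD over mean) was 1.51%, and 0.139% of the 10047 genes with a mean of at least 10 CPM had a lower one. That sample was left out after its values were seen. Over all 8 samples the coefficient was 10.3%, and 54.0% of these genes had a lower one.

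The RefSeq promoter of *Meg3* is shown because *Meg3* has the highest level of the 9 members, and its start carries short motifs of common promoter factors (chr12:109540746-109541045, plus strand, GRCm38.p6).
*Meg3* promoter: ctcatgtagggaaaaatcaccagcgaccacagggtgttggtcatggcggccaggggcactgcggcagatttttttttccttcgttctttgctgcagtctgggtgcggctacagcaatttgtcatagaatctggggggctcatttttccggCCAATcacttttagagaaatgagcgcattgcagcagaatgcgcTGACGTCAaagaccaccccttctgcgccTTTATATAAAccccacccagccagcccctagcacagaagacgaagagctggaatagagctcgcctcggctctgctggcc
Capitals mark, from left to right, CCAAT (100 bases before the start), TGACGTCA (57 bases before, the full palindromic cyclic AMP response element) and TATAAA (25 bases before, overlapping a match on the other strand that begins 29 bases before). Both strands were searched. Of 32851 RefSeq promoters of the same length, 1.79% hold TGACGTCA, 37.4% hold CCAAT and 13.6% hold TATAAA, and GGGCGG, held by 35.7%, is not in this window. These are matches of letters and were not tested as binding sites.

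*Rian* and *Mirg* follow *Meg3* on the same strand. *Rian* was at 872, 861, 837 and 750 CPM in WT and 765, 824, 842 and 839 CPM in Mvp KO. Its log2 fold change was -0.02 (standard error 0.07, adjusted p = 0.98), the narrowest error of the 9. *Mirg* was at 40.5, 40.3, 36.5 and 24.0 CPM in WT and 38.6, 33.8, 37.1 and 40.3 CPM in Mvp KO. WT replicate 4 was the lowest sample for both, and the genotypes overlapped for both. *Mirg*'s log2 fold change was 0.08 (standard error 0.15, adjusted p = 0.969), and -0.06 without WT replicate 4. Levels fell along the domain, from 4716 CPM for *Meg3* to 824 CPM for *Rian* and 36.4 CPM for *Mirg* (means of 8 samples), in that order in all 8 samples.

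**Figure D2:**
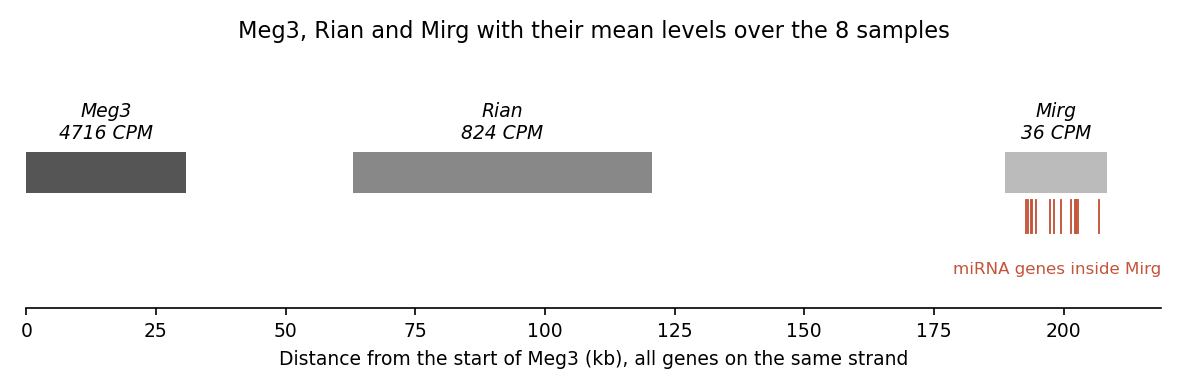
Map of *Meg3*, *Rian* and *Mirg* by distance from the start of *Meg3* (x axis, kb; bars, gene spans on 1 strand; ticks, the 14 miRNA genes inside *Mirg*), with mean CPM over the 8 samples. *Rian* begins 62.9 kb and *Mirg* 189 kb from the start of *Meg3*.

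*Mirg* holds 14 miRNA genes, of which 10 had any count in the table, 712 counts in all over 8 samples against 10466 for *Mirg* itself. These libraries were not made for small RNAs, and which RNA such counts came from was not tested. Mature sequences of 5 miRNA genes that had counts, chosen after the counts were seen, are shown as examples of what *Mirg* carries, from RefSeq (GRCm38.p6), with the seed (bases 2 to 8), which pairs with targets, in capitals.
miR-409-3p: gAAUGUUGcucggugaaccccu
miR-541-5p: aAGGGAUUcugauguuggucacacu
miR-369-3p: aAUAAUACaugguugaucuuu
miR-453: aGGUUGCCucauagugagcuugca
miR-496a-5p: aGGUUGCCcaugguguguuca
miR-453 and miR-496a-5p share the seed GGUUGCC, the only seed held by more than 1 of the 26 mature sequences in *Mirg*, which have 25 seeds. *Mir409* had 26, 23, 24 and 12 counts in WT and 22, 17, 19 and 14 in Mvp KO. *Mir541* had 15, 21, 20 and 6 counts in WT and 18, 18, 23 and 25 in Mvp KO. Both were lowest in WT replicate 4, as *Mirg* was. *Mir3072*, the miRNA gene with the most counts in *Mirg* (158), went the other way: it was highest in WT replicate 4, at 0.826 CPM, with the remaining 7 between 0.399 and 0.579 CPM. *Mir412* was lowest in WT replicate 1, with 0 counts, and none of these differences was tested. In *Rian*, 4 of 13 snoRNA genes had counts, 687 in all, against 235926 for *Rian*. These 4 were among the 5 that lie outside the annotated exons of *Rian*, and every snoRNA gene that overlaps an exon had 0 counts. Whether the counting left out reads shared with *Rian* was not tested, so 0 counts do not show absence.

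Of 5 other genes listed for the *Dlk1*-*Dio3* domain, 3 were tested and 0 passed at either threshold. *Begain*, which encodes a protein of the postsynaptic density, was between 35.2 and 51.7 CPM (log2 fold change 0.05, standard error 0.11). *Dlk1*, a secreted regulator of differentiation from the paternal copy, was between 0.138 and 1.33 CPM (log2 fold change -0.65, standard error 0.62). *Dio3*, a deiodinase that inactivates thyroid hormone, was between 0.499 and 3.97 CPM (0.32, standard error 0.63). *Rtl1* and *Dio3os* had too few counts to be tested, 81 and 43 in all.

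The pairs set by position were compared over the 8 samples, as Pearson's r and Spearman's rho of log2 CPM, with exact permutation tests over pairings (two-sided) adjusted over 4 pairs. *Meg3* and *Mirg* had r = 0.92 (permutation p = 0.0805, adjusted p = 0.141) and rho = 0.238 (permutation p = 0.582, adjusted p = 0.776). *Meg3* and *Rian* had r = 0.65 (permutation p = 0.106, adjusted p = 0.141) and rho = 0.0476 (permutation p = 0.935, adjusted p = 0.935). No pair passed the threshold after adjustment. Both values of r rested on WT replicate 4, since they were -0.20 and -0.40 without it and 0.29 and -0.23 without the 2 samples farthest from the median of *Meg3*. *Rian* and *Mirg* had r = 0.71 (permutation p = 0.0435, adjusted p = 0.141) and rho = 0.81 (permutation p = 0.0218, adjusted p = 0.0871). Their r was 0.27 without WT replicate 4 (permutation p = 0.551, adjusted p = 0.652). It was 0.97 without Mvp KO replicate 1 (permutation p = 0.00258, adjusted p = 0.0103). That set still held WT replicate 4, the lowest sample for both genes. Leaving out any other single sample gave an adjusted permutation p of 0.128 to 0.174. Without both WT replicate 4 and Mvp KO replicate 1, the samples farthest from the median of *Rian*, r was 0.81.

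**Figure D3:**
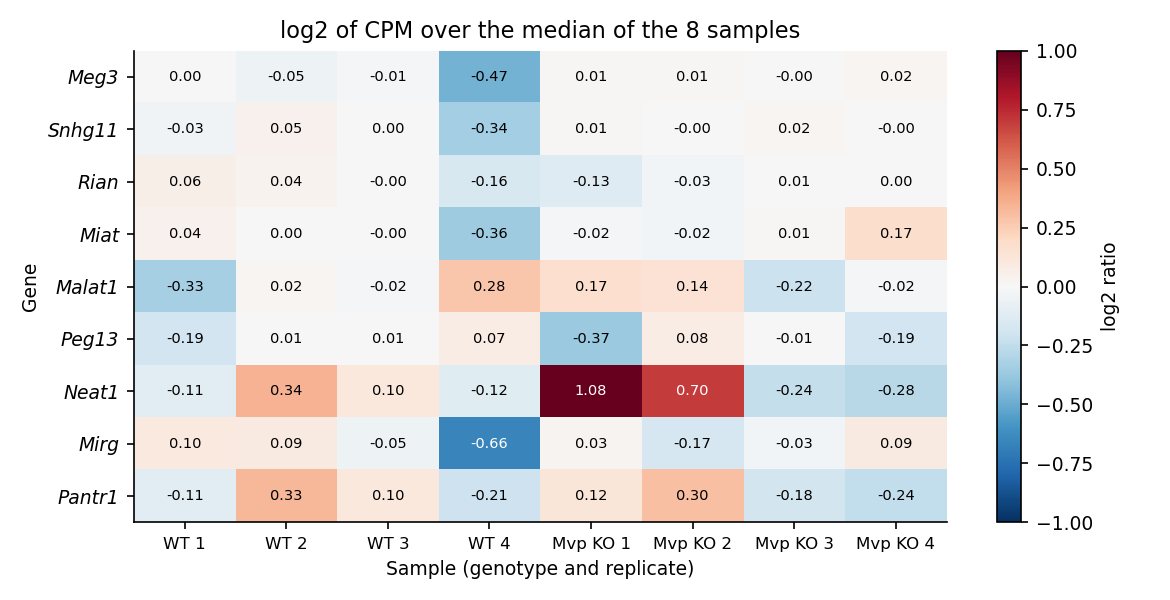
Log2 of each sample's CPM over the median of the 8 samples (colour and printed value) for the 9 RNAs (rows) in each sample (columns). WT replicate 4 was low for *Meg3*, *Snhg11*, *Rian*, *Miat* and *Mirg*, and Mvp KO replicates 1 and 2 were high for *Neat1*.

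*Neat1* varied most among the members. It lies on the minus strand of chromosome 19 from 5824708 to 5845478. It was at 108, 149, 126 and 108 CPM in WT and 247, 190, 98.9 and 96.3 CPM in Mvp KO. Thus 2 Mvp KO samples were above every WT sample and the other two were below every WT sample. Its log2 fold change was 0.37 (standard error 0.29, adjusted p = 0.969), and its means were 122 ± 19.3 CPM in WT and 158 ± 73.5 CPM in Mvp KO (SD, n = 4; exact permutation test, two-sided, p = 0.429). Among genes with at least 10 CPM, 97.4% varied less over the 8 samples.

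The 2 Mvp KO samples with high *Neat1* also had the most oligodendrocyte RNA. The summed CPM of 8 oligodendrocyte markers was 1724, 2157, 2778 and 1324 in WT and 5637, 3859, 1941 and 1522 in Mvp KO. All 8 markers had log2 fold changes above 0, with a median of 0.67, none passed an adjusted p of 0.05, and *Olig2*, a transcription factor of the lineage, was the single marker under 0.05 before adjustment (log2 fold change 0.36, standard error 0.14, adjusted p = 0.969). With the mean of these markers as a covariate, the log2 fold change of *Neat1* was -0.15 (standard error 0.12), and without Mvp KO replicates 1 and 2 it was -0.33 (standard error 0.14, adjusted p = 0.982). Both fits were chosen after the values were seen. Whether the markers account for *Neat1* was not tested.

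**Figure D4:**
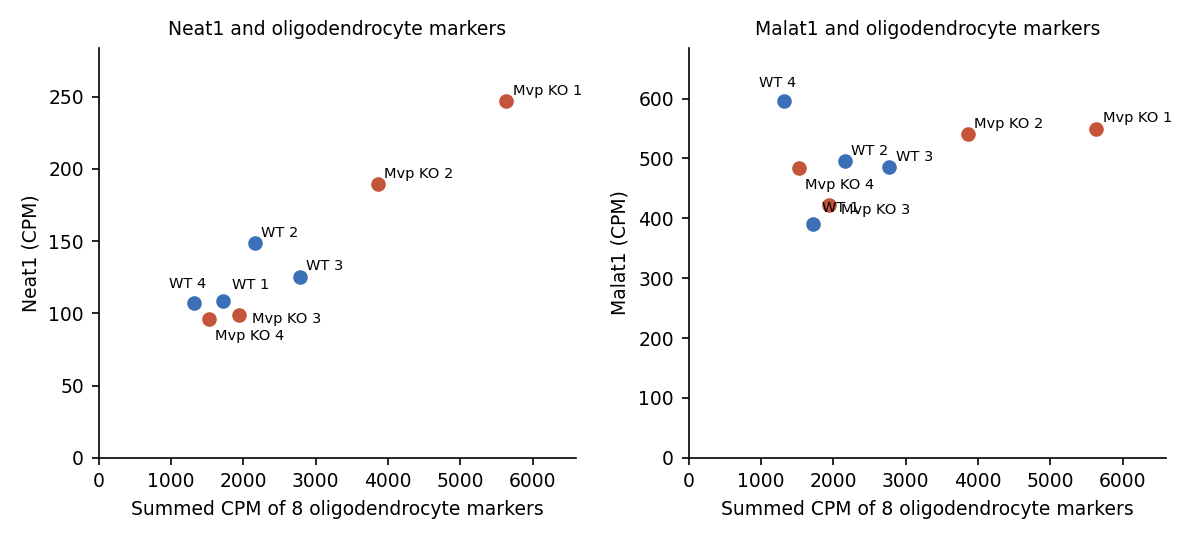
*Neat1* (left) and *Malat1* (right) in CPM (y axes) against the summed CPM of 8 oligodendrocyte markers (x axes), 1 point per sample, blue for WT and red for Mvp KO. *Neat1* was highest, at 247 and 190 CPM, in the 2 samples with the highest marker sums, 5637 and 3859 CPM, whereas *Malat1* was highest in WT replicate 4, which had the lowest sum, 1324 CPM.

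The genes whose log2 CPM was most like *Neat1* over the 8 samples were *Sox2ot*, a long noncoding RNA around *Sox2* (r = 0.99), *Rasgrp3*, a Ras activator (r = 0.99), and *Elovl7*, a fatty acid elongase (r = 0.98). *Sox2ot* was at 16.7, 21.6, 20.2 and 15.4 CPM in WT and 40.9, 32.5, 15.6 and 14.9 CPM in Mvp KO, high in the same 2 samples. *Frmd8*, a close neighbour of *Neat1*, was at 21.5 and 16.1 CPM in those samples and between 9.55 and 13.1 CPM in the other 6. Of 5 neighbours of *Malat1* and *Neat1* that were tested, 0 passed at either threshold. Of 15 paraspeckle protein genes, 0 passed at either threshold, 8 were above 0 and 7 below, and the median log2 fold change was 0.01. *Nudt21*, a cleavage factor subunit, had the smallest p among them (log2 fold change 0.18, standard error 0.09, adjusted p = 0.969), followed by *Rbm14* (-0.25, standard error 0.15).

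*Malat1*, on the same strand as *Neat1*, spans chromosome 19 from 5795690 to 5802672. It was at 390, 496, 485 and 595 CPM in WT and 550, 541, 422 and 483 CPM in Mvp KO. WT held both the lowest and the highest sample, and the log2 fold change was 0.02 (standard error 0.13, adjusted p = 0.985). By CPM it was the single member highest in WT replicate 4. As a share of all counts it was higher in Mvp KO replicates 1 (0.0577%) and 2 (0.0552%) than in WT replicate 4 (0.0540%). Of 18 nuclear speckle protein genes, 0 passed at either threshold and 16 were above 0, with a median of 0.06. Of the 18, 13 were lowest in WT replicate 4, and the median without that sample was 0.03. The largest r with *Malat1* was that of *Ado* (0.96), a thiol dioxygenase, followed by *Ube2d-ps* and *Egr2*, an immediate early transcription factor, both at 0.96. Among genes with at least 10 CPM, 26 (0.259%) had r above 0.9 with *Malat1*.

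*Malat1* and the long form of *Neat1* do not end in a usual poly(A) tail: their 3′ ends are cut by RNase P, and an A-rich tract folds with U-rich stretches into a triple helix. The sequences at these ends are shown because these libraries were selected for poly(A) RNA (longest GENCODE vM21 transcripts: *Malat1*, bases 6612 to 6711 of 6983; *Neat1*, bases 20692 to 20771 of 20771).
*Malat1*: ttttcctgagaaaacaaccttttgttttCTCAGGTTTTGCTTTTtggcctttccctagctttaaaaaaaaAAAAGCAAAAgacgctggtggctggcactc
*Neat1*: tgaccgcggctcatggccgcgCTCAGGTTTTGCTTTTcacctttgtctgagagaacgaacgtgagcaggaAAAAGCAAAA
Capitals mark AAAAGCAAAA, the last 10 bases of *Neat1*, and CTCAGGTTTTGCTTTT, the longest run that both RNAs share in the 70 bases before it, searched on the transcript's strand. Of 30258 transcripts with a long noncoding or processed transcript type, of all lengths, 203 (0.671%) hold the first, as do 6 of the 110 that are at least 6000 bases long (5.45%), and 2 hold the other, 1 each of *Malat1* and *Neat1*. The shared run was chosen for being shared, so its rarity is a description. The annotated *Neat1* ends with the tract, and the annotated *Malat1* goes on for 292 bases past it. How much of either RNA the selection kept was not tested, and counts per gene do not separate the short and long forms of *Neat1*.

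*Malat1* and *Neat1* had r = 0.49 (permutation p = 0.214, adjusted p = 0.214) and rho = 0.50 (permutation p = 0.216, adjusted p = 0.432) over the 8 samples. Their r was 0.79 without WT replicate 4 (permutation p = 0.0387, adjusted p = 0.155) and 0.87 without the 2 samples farthest from the median of *Malat1*. No p was computed for the last of these, and the adjusted p of the others did not pass 0.05.

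*Miat* was at 745, 725, 722 and 566 CPM in WT and 715, 711, 731 and 815 CPM in Mvp KO. The 3 other WT samples lay among the Mvp KO samples. The log2 fold change was 0.11 (standard error 0.10, adjusted p = 0.969), and 0.03 without WT replicate 4. The gene spans chromosome 5 from 112213228 to 112229395 on the minus strand. Its RNA is known for repeats of the hexamer ACTAAC, which the splicing factor SF1 binds, and the densest stretch of 150 bases is shown (longest transcript, bases 4923 to 5072 of 9163).
*Miat*: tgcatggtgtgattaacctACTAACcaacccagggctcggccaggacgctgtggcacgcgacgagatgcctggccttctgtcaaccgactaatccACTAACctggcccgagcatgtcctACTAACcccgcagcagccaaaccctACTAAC
Capitals mark ACTAAC on the transcript's strand, 4 in this window and 11 in the transcript. Of the 30258 transcripts, 11.4% hold at least 1 copy and 6 hold 4 or more within 150 bases. The gene most like *Miat* over the 8 samples was *Phf2*, a histone demethylase (r = 0.99, and 0.96 without WT replicate 4). *Gm26953* lies antisense to 24.3% of *Miat*'s exonic bases and was between 0.263 and 0.53 CPM, and the strand setting of the counting is not given in the sources used here.

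*Snhg11* was the next most abundant member after *Meg3*, at 3138, 3317, 3212 and 2541 CPM in WT and 3245, 3211, 3263 and 3212 CPM in Mvp KO. As for *Meg3*, 7 samples were close together, with a coefficient of variation of 1.71%, and WT replicate 4 was low. Over all 8 samples the coefficient was 7.90%, and 35.6% of genes with at least 10 CPM had a lower one. The log2 fold change was 0.08 (standard error 0.09, adjusted p = 0.969), and 0.01 without that sample. GENCODE vM21 types *Snhg11* as protein coding. *Rhno1*, which acts in the response to damaged DNA, was most like it (r = 0.999, and 0.979 without WT replicate 4).

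*Peg13* was at 374, 429, 428 and 449 CPM in WT and 330, 450, 425 and 373 CPM in Mvp KO, and the samples of the genotypes were interleaved (log2 fold change -0.09, standard error 0.11, adjusted p = 0.969). Of the 4 other genes of its domain, 0 passed at either threshold. *Trappc9*, the trafficking gene whose intron holds *Peg13*, had a log2 fold change of -0.12 (standard error 0.11), and *Kcnk9*, a potassium channel, -0.13 (standard error 0.18). *Cdc40*, a splicing factor, was most like *Peg13* (r = 0.96).

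*Pantr1* was the least abundant member, at 26.2, 35.5, 30.3 and 24.5 CPM in WT and 30.7, 34.7, 24.9 and 23.9 CPM in Mvp KO. The highest and next-to-lowest samples were both WT, and the log2 fold change was -0.03 (standard error 0.15, adjusted p = 0.984). *Pou3f3* had a log2 fold change of 0.16 (standard error 0.11) and *Pantr2*, a noncoding neighbour, -0.10 (standard error 0.20), and neither passed at either threshold. *Prelid3b* was most like *Pantr1* (r = 0.97).

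**Figure D5:**
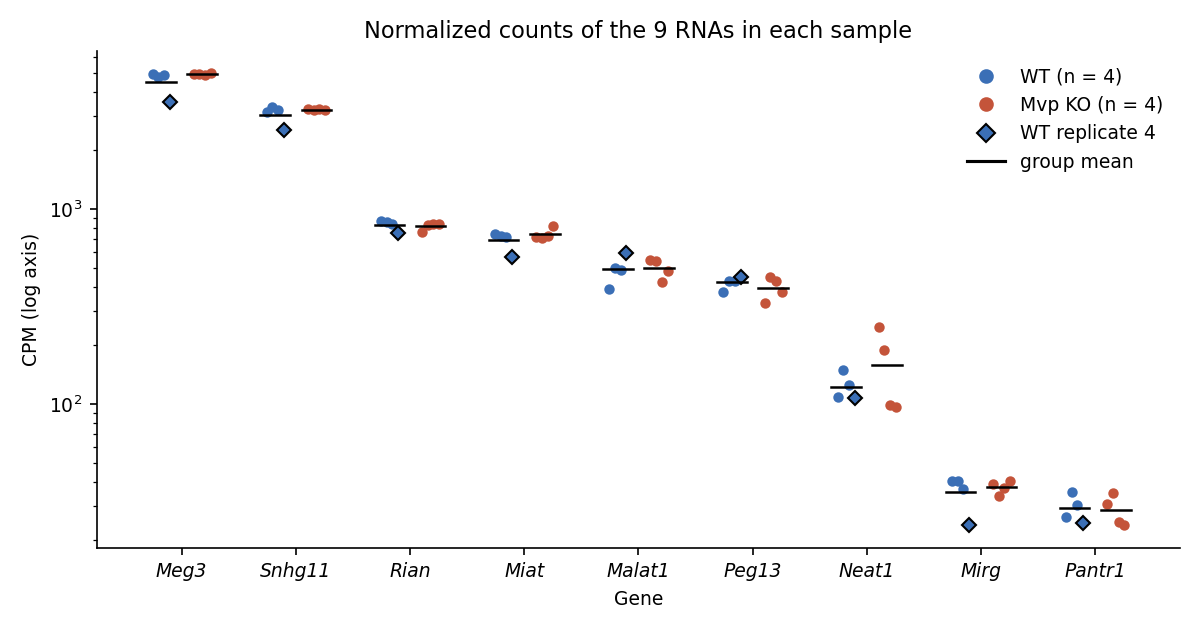
CPM of the 9 RNAs (log y axis) in each sample, blue for WT and red for Mvp KO (n = 4 each), ordered by mean level, with black lines for group means and a diamond for WT replicate 4. The genotypes overlapped for every gene, and the levels ran from 4716 CPM for *Meg3* to 28.8 CPM for *Pantr1* (means of 8 samples).

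Per length, as CPM per kb of all annotated exonic bases, the order of the members differed from that by CPM. *Snhg11* came first at 369 ± 29.1, followed by *Meg3* at 261 ± 26.8 (SD, n = 8), and their ranges did not overlap. *Peg13* (86.2), *Miat* (77.1) and *Malat1* (70.9) followed, with *Peg13* above *Miat* in 5 of 8 samples and *Miat* above *Malat1* in 5 of 8, so these neighbours did not differ beyond their spread. *Rian* was at 45.2, below *Malat1* in all 8 samples. *Neat1* (6.75), *Pantr1* (6.47) and *Mirg* (4.99) were lowest, and the ranges of neighbours overlapped. *Neat1* was above *Pantr1* in only 2 of 8 samples, so the order of their means did not hold in most samples. *Pantr1* was above *Mirg* in 7 of 8. By the longest annotated transcript *Rian* rose to 102, since its exons from 20 transcripts cover 18234 bases and its longest transcript 8089. On that scale *Neat1* stayed at 6.75 and came last, since *Pantr1* rose to 13.8 and *Mirg* to 9.52. On both scales *Neat1* was divided by 20771 bases, the length of its long form. Its short form was not counted apart, so its place per length depends on that divisor. How much *Malat1* and *Neat1* RNA the poly(A) selection kept was not tested.

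WT replicate 4 was the lowest sample for 5 of the 9 members and the highest for 1, against 31.7% and 35.6% of the genes with at least 10 CPM. Its level relative to the median of the other 7 samples was lower by 38.0% for *Mirg*, 28.0% for *Meg3* and 20.9% for *Snhg11*, and 22.8% higher for *Malat1*. Of all genes at that level, 9.91% were at least as far from the other samples, in either direction, as *Mirg* was, and 20.4% as far as *Meg3*. The part of the sample's other differences in these values was not tested.

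Among 33 tested genes of 39 other named long noncoding RNAs, 0 passed at either threshold, 15 were above 0 and 18 below. *Snhg8*, a snoRNA host, had the smallest p (log2 fold change -0.22, standard error 0.13, adjusted p = 0.969), followed by *Sox2ot* (0.49, standard error 0.32). Of the 1503 tested genes with a long noncoding type, 0 passed the adjusted threshold and 41 (2.73%) were under 0.05 before adjustment, and their median log2 fold change was 0.03.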

How the data were processed

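RNA of the cingulate cortex from 4 WT and 4 Mvp KO mice was sequenced, and all replicates are biological by the study's methods. The authors trimmed reads with cutadapt 1.10, removed ribosomal and spike-in reads with Bowtie2 2.2.8, mapped with STAR 2.5.3a to mm10 and deposited raw counts per Ensembl gene from HTSeq 0.6.1p1, with no normalization. The counting mode and strand setting are not given in the sources used here.

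Symbols, exons and transcripts came from GENCODE vM21, another release, which holds 53274 of the 53379 identifiers. Counts were filtered with filterByExpr (minimum count 10, minimum total 15), TMM-scaled and fitted with edgeR 4.0.16 (robust quasi-likelihood, genotype only), with Benjamini-Hochberg adjustment over all genes tested. CPM and log2 CPM (prior count 2) were computed here. Alternatives used limma 3.58.1 and DESeq2 1.42.0 in R 4.3.3. Python 3.11.15, SciPy 1.17.1 and matplotlib 3.10.9 did the rest. On simulated counts of this comparison (16914 genes, 200 changed), edgeR recovered 26.7% of 1.5-fold, 61.2% of 2-fold and 90% of 3-fold changes. The changed genes were drawn at random from all genes tested, so these rates are not those of the members. Of the calls in that simulation, 3.25% were false for edgeR and 23.0% for DESeq2.

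Genes named were the members, *Mvp*, in each list those under an unadjusted p of 0.05 or else the 2 smallest, and up to 3 genes most correlated with a member. The most correlated genes are the highest of many correlations over 8 samples, and no p was computed for them. *Begain*, the miRNA genes, *Gm26953* and the single samples discussed were chosen after values were seen. The members and lists were chosen with earlier results of these data known. The marker lists of astrocytes, microglia and endothelial cells had 0 adjusted calls, and 1 gene under an unadjusted 0.05 (*Aldoc*, log2 fold change -0.17). RefSeq held promoters for 6 of the 9 members.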

Additional observations from a re-analysis of the deposited data

Results flagged for a closer look

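In 18 groups of 4 samples (9 genes in each genotype), the gap between the most distant sample and its neighbour was divided by the group's range. It was above Dixon's 95% critical value in 2 groups, where chance gives about 0.9 if groups are independent. WT replicate 4 was the lowest sample for 31.7% and the highest for 35.6% of genes with at least 10 CPM. The share of all genes flagged was not computed, so the 2 flags are not a result about these members. Both flags were WT replicate 4. *Meg3* was at 3529 CPM there while the rest of the WT group spanned 4739 to 4903 CPM (ratio 0.881), and *Miat* was at 566 CPM against 722 to 745 CPM (ratio 0.868).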

How the results depend on the processing

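No member was called, or was under an unadjusted p of 0.05, under any of the alternatives (other scalings, tools, filters, covariates and samples left out). *Mvp* itself was not called by edgeR with the oligodendrocyte score (adjusted p = 0.110) or without Mvp KO replicates 1 and 2 (adjusted p = 0.982). The lack of calls in these fits therefore says little about the members. *Meg3* was the member whose genotypes did not overlap in 1 of 9 when the library was scaled without the members and mitochondrial genes, and leaving out single samples gave 0 to 1. Over the fits with 1 sample left out, log2 fold changes ranged from -0.079 to 0.13 for *Malat1*, 0.068 to 0.54 for *Neat1*, -0.065 to 0.010 for *Rian*, -0.059 to 0.16 for *Mirg* and -0.14 to 0.081 for *Pantr1*. Other reversed values were, with limma voom, -0.0013 for *Malat1*, -0.061 for *Neat1* and -0.0083 for *Mirg*, with the oligodendrocyte score -0.041 for *Malat1* and -0.15 for *Neat1*, and without Mvp KO replicates 1 and 2 -0.12 for *Malat1*, -0.33 for *Neat1* and 0.018 for *Rian*. The cause was not tested. With 1 sample left out, r ranged from -0.40 to 0.90 for *Meg3* and *Rian*, -0.20 to 0.97 for *Meg3* and *Mirg*, 0.27 to 0.97 for *Rian* and *Mirg* and 0.39 to 0.79 for *Malat1* and *Neat1*. WT replicate 4 gave the lowest of the first 3 ranges. As deviations from the genotype means without WT replicate 4, r was 0.04, 0.06 and 0.08 for these 3 pairs.

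Replicate numbers are shared between the genotypes. Same-numbered samples had correlations of deviations of 0.0548, 0.287, -0.0067 and 0.0507, and 2 of 8 samples correlated best with their own number. These values show no clear pairing but cannot exclude one, since WT replicate 4 weighs on the deviations of every WT sample. With the replicate block, 0 members were called and *Neat1* was at 0.26 and *Meg3* at 0.14. The block lowered the standard error for some members, as for *Pantr1* from 0.151 to 0.0998, and raised it for others, as for *Miat* from 0.0997 to 0.113. Depth limits little here, since each member had at least 680 counts in every sample.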
